A study of Oryza sativa Indica Group with 9 samples.

Results

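Leaves of rice seedlings kept at 45 °C for 24 h were compared with leaves taken at 0 h of the same treatment, by sequencing of small RNA. The seedlings were of the Indica line HT54 at the three-leaf stage and had grown at 25 °C before the heat, per the labels. Each time point has 2 small RNA libraries (replicates 1 and 3), so 4 of the series' 9 samples carry the comparison. The labels call the samples independent without naming plants or cultures, and say that 1 further library of each time point was set aside. The p-values therefore measure the spread between the libraries that were kept. No leaves held for 24 h without heat are among the samples, so heat and elapsed time cannot be told apart. The authors' list of mature miRNA sequences held 483 distinct sequences in 132 families, a family being all sequences with the same number after miR. Of these, 459 sequences and 124 families had at least 10 reads in at least 2 of the 6 small RNA libraries of the series (0, 12 and 24 h), and all of them are covered here. In the authors' names, L or R with a number marks bases added to or missing from the left or right end, and ss a substitution, relative to the database entry. The sequences were described by family, by arm of the precursor hairpin, by length, and by whether the name carries the rice prefix (osa) or that of another plant.

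A plant miRNA is cut by a Dicer-like enzyme from a hairpin precursor as a duplex. One strand, from the 5p or the 3p arm, is loaded into an Argonaute protein and guides it to a complementary mRNA, which is usually cleaved within the paired stretch, while the other strand is mostly degraded. The common length in plants is 21 nt and a 5′ U favours loading into the main Argonaute of this pathway. Conserved families have well-known targets. miR396 targets growth-regulating factors of leaf growth, miR160 auxin response factors, miR393 auxin receptors, miR172 AP2-type transcription factors, and miR528 copper proteins and an ascorbate oxidase. Fragments of tRNA also fall in this size range, and mature tRNAs end in CCA.

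The sequences on which the results turn were taken from the deposited list and are written 5′ to 3′ as DNA letters. In the first set, bases 2 to 8 (the seed) are in capitals. The miR396 sequences are shown because they carry the largest gain in reads, and because osa-miR396d and osa-miR396e-5p differ by 1 base (T20G, counted from the 5′ end, with the base of osa-miR396e-5p first).
osa-miR396e-5p: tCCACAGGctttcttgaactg
osa-miR396d: tCCACAGGctttcttgaacgg
osa-miR396a-5p: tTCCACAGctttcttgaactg

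The other sequences that rose with their families, shown for their different seeds, are those of miR393, miR172 and miR160. Here osa-miR160a-5p and osa-miR160f-5p differ by 1 base (A15T, the base of osa-miR160f-5p first).
osa-miR393a: tCCAAAGGgatcgcattgatc
osa-miR172a: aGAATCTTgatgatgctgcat
osa-miR160a-5p: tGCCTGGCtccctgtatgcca
osa-miR160f-5p: tGCCTGGCtccctgaatgcca

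Next are sequences of both arms of miR166, of which the 2 printed 5p sequences fell, and those of miR528, which both fell. The 2 printed miR166 5p sequences share a seed and differ at 2 bases (C15T and G18A, the base of osa-miR166d-5p first). The deposited list puts the precursor of miR528 at chr3:1667328-1667415 on the plus strand and that of osa-miR166d-5p at chr2:26130059-26130183 on the plus strand. No source used here names the genome build behind these positions, and no annotation was set against them.
osa-miR166a-3p: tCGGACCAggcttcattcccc
osa-miR166a-5p: gGAATGTTgtctggttcaagg
osa-miR166d-5p: gGAATGTTgtctggctcgagg
osa-miR528-5p: tGGAAGGGgcatgcagaggag
osa-miR528-3p: cCTGTGCTtgcctcttccatt

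The last set holds sequences with low values at 24 h that end in CCA, here in capitals. It is shown because names of different families cover the same letters. The 18 nt of cpa-miR8155_L-1 lie at the 3′ end of both rgl-miR5139 forms, and ppt-miR894_R+1 and osa-miR5077_1ss5GA have their last 18 bases in common.
rgl-miR5139_L+3: tcgaaacctggctctgataCCA
rgl-miR5139_L+2: cgaaacctggctctgataCCA
cpa-miR8155_L-1: aacctggctctgataCCA
ppt-miR894_R+1: cgtttcacgtcgggttcaCCA
osa-miR5077_1ss5GA: gttcacgtcgggttcaCCA
ath-miR8175_L+3_1ss5AT: ttcgttccccggcaacggcgCCA

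The listed sequences held 119293 and 227965 reads in the 24 h libraries (replicates 1 and 3, the order used throughout), against 33623 and 102513 reads in the 0 h libraries. These are sums over the list and not library totals. Family sums and single sequences were scaled in separate fits, so a sequence can exceed its family by a little in CPM. Levels are in CPM, the reads of a library brought to one total over the list by TMM scaling, and in the sequence fit a library's floor of 3 reads stood at 36.1 and 16.1 CPM in the 24 h libraries and at 78.2 and 28.6 CPM in the 0 h libraries. Across sequences, log2 CPM correlated with r = 0.882 between the 24 h libraries and r = 0.917 between the 0 h libraries. CPM is a level relative to the other listed sequences. Fewer cells of a type, less of a miRNA per cell and a gain of other sequences therefore cannot be told apart. In the authors' deposited table of read classes, which gives 1 value per time point, tRNA took 0.984% of reads at 24 h and 1.46% at 0 h, and rRNA 4.40% at 24 h and 5.13% at 0 h.

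Of the 124 families, 18 (14.5%) passed edgeR's quasi-likelihood test at an adjusted p under 0.05 and are called changed. Of these, 5 families (4.03%) rose at 24 h, and they were miR396, miR393, miR172, miR3982 and miR160. The other 13 (10.5%) fell, and they were miR5073, miR5139, miR2606, miR8155, miR3979, miR5077, miR1850, miR8175, miR2106, miR528, miR894, miR6300 and miR9774. Among single sequences, 44 of 459 (9.59%) passed, with 12 (2.61%) higher and 32 (6.97%) lower at 24 h. In 31 families (25%) both 24 h libraries lay above both 0 h libraries, and in another 31 (25%) both lay below. The same held for 122 sequences (26.6%) above and 127 sequences (27.7%) below. Each call was refitted with each of the 4 libraries left out in turn. Such a fit leaves 1 time point with a single library, which is assumed to vary like the other groups, so a call kept or lost there is a description and no measure of that library's own spread. Below, a call is said to be lost without a library where its adjusted p was no longer under 0.05, with the log2 change of that fit in parentheses. The number of called sequences was between 8 and 24 in those fits (8 where 1 of the 0 h libraries was missing, 13 where 24 h replicate 1 was, and 24 where 24 h replicate 3 was), and the number of called families was 5 without 0 h replicate 1, 6 without 0 h replicate 3, 13 without 24 h replicate 1 and 15 without 24 h replicate 3. Without the 12 h libraries, of which 1 held only 10314 reads, 60 sequences and 22 families were called.

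**Figure D1:**
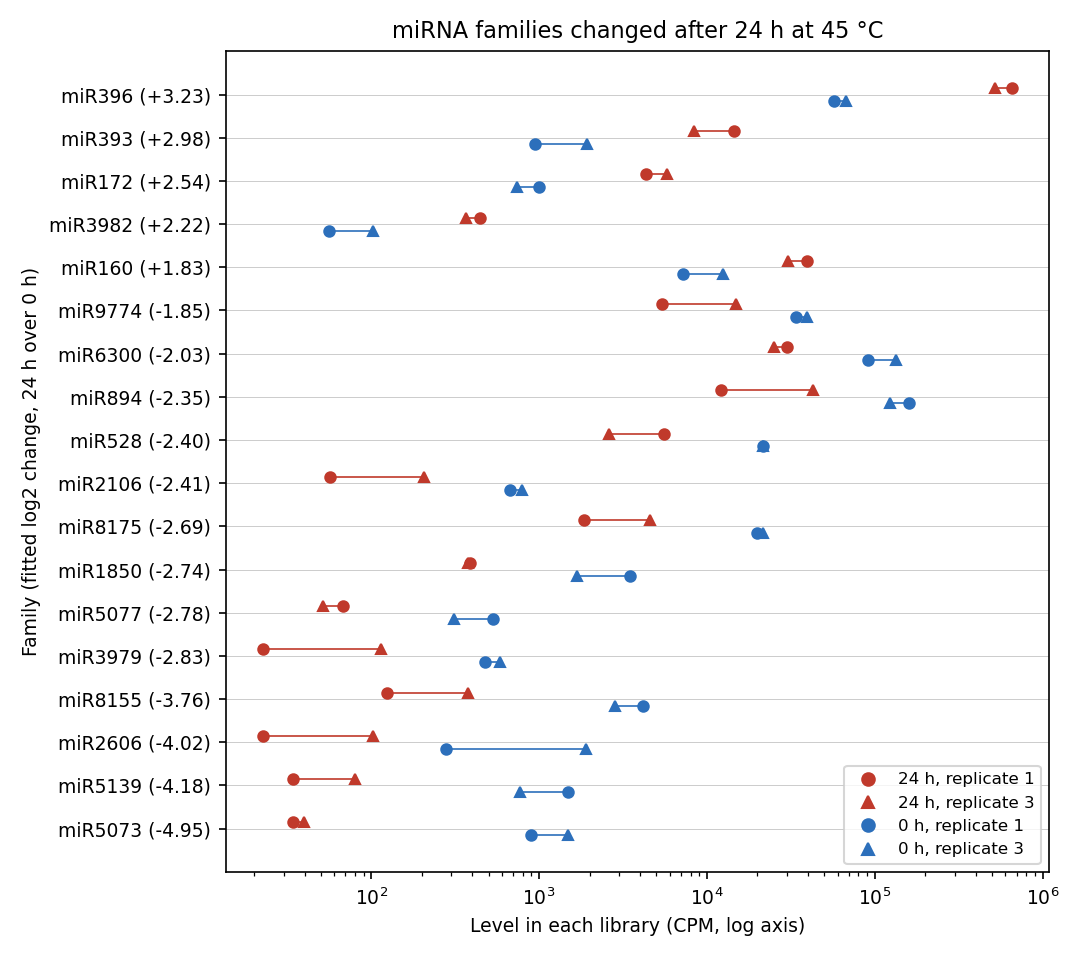
Level of each of the 18 called families in the 4 libraries, in CPM on a log axis, with the 24 h libraries (red) above the 0 h libraries (blue) in each row, and circles for replicate 1 and triangles for replicate 3. In all 18 families the points of the 24 h libraries lie on one side of those of the 0 h libraries, as for miR396 with 654574 and 517226 CPM at 24 h and 57369 and 67794 CPM at 0 h. The families were selected by a test on these same libraries, so this adds no evidence. Among all 124 families, 31 lay above and 31 below in this way.

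The miR396 family, which limits leaf cell proliferation through growth-regulating factors, rose most in reads. Its summed level was 654574 and 517226 CPM in the 24 h libraries, against 57369 and 67794 CPM in the 0 h libraries. Both 24 h libraries thus held several times the level of either 0 h library (log2 change 3.23 ± 0.34, adjusted p = 5.85e-07). The call was kept without each of the 4 libraries in turn (3.08 to 3.46). Part of the family's rise was osa-miR396c-5p, which took 4.47% of the listed reads in 24 h replicate 3 and was not called (log2 change 1.82). Most of the rise was 1 sequence, osa-miR396e-5p, which took 46.5 and 34.7% of all listed reads in the 24 h libraries, against 4.37 and 5.94% in the 0 h libraries. Its level was 668029 and 423875 CPM in the 24 h libraries, against 38285 and 58177 CPM in the 0 h libraries (log2 change 3.50 ± 0.91, adjusted p = 0.00440), and its own call was lost without 0 h replicate 1 (3.23) or 0 h replicate 3 (3.77).

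Of the 10 miR396 sequences tested, 9 had a positive log2 change and 3 were called higher. Beside osa-miR396e-5p these were osa-miR396a-5p and osa-miR396d. For osa-miR396a-5p, whose seed is TCCACAG in place of CCACAGG, the level was 3394 and 2068 CPM in the 24 h libraries, against 417 and 611 CPM in the 0 h libraries (log2 change 2.39 ± 0.76, adjusted p = 0.0273). Its groups did not overlap, and the call was lost without 0 h replicate 1 (2.16), 0 h replicate 3 (2.64) or 24 h replicate 1 (1.97). For osa-miR396d the data are 76 and 66 reads in the 24 h libraries, against 0 and 1 read in the 0 h libraries. Its reads, scaled by the listed reads times the TMM factor, were 75.3 times as high at 24 h, with a counting interval of 13.3 to 2996. Its call (6.28 ± 1.18, adjusted p = 3.01e-05) was kept without each of the 4 libraries in turn (5.47 to 8.88). Because osa-miR396d differs from osa-miR396e-5p by 1 base, it was also set against it: it made up 0.137 and 0.0834% of the reads of the pair in the 24 h libraries, against 0 and 0.0164% in the 0 h libraries. Its counting intervals on that share were 0.108 to 0.171% and 0.0645 to 0.106% in the 24 h libraries, against 0 to 0.251% and 0.000415 to 0.0914% in the 0 h libraries. The intervals of 24 h replicate 1 and 0 h replicate 3 did not meet, and those of the other 24 h and 0 h pairs overlapped. Whether these few reads are copies of the abundant sequence with 1 misread base was not tested.

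The auxin families miR393 and miR160 rose, while miR167 and miR390 did not pass the test. miR393, which targets the TIR1/AFB auxin receptors, had 14482 and 8405 CPM in the 24 h libraries, against 949 and 1929.8 CPM in the 0 h libraries (log2 change 2.98 ± 0.81, adjusted p = 0.0195). The call was lost without 0 h replicate 1 (2.53). Its main sequence, osa-miR393a, made up 97.8% of the family's reads and had 15045 and 7694 CPM in the 24 h libraries, against 887 and 1938 CPM in the 0 h libraries (2.99 ± 0.76, adjusted p = 0.00356). That call was lost without 0 h replicate 1 (2.55), 0 h replicate 3 (3.61) or 24 h replicate 1 (2.43). The 24 nt ghr-miR393_L+3R-1, chosen for mention after its values were seen, had 28 reads over the 24 h libraries and none over the 0 h libraries, which is at least 4.95-fold higher against 3 counts over the group. It holds all of osa-miR393a behind 3 further bases at the 5′ end.

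miR160, which targets auxin response factors, had 39282 and 30544 CPM in the 24 h libraries, against 7203 and 12403 CPM in the 0 h libraries (log2 change 1.83 ± 0.60, adjusted p = 0.0465). All 4 of its sequences had positive log2 changes and all came from the 5p arm. The family call was lost without each of the 4 libraries in turn (1.46 to 2.39). The less abundant osa-miR160a-5p had 10483 and 4051 CPM in the 24 h libraries, against 548 and 1337 CPM in the 0 h libraries (2.92 ± 0.76, adjusted p = 0.00440), and its call was lost without 0 h replicate 1 (2.44), 0 h replicate 3 (3.66) or 24 h replicate 1 (2.08). The more abundant osa-miR160f-5p, 1 base different, had 19787 and 14761 CPM in the 24 h libraries, against 4199 and 7905 CPM in the 0 h libraries (1.51 ± 0.73, adjusted p = 0.188) and was not called. Reads of these near-identical sequences could be divided between them by the authors' counting, and the family sum does not depend on that division. miR390, which starts the tasiRNA route to auxin response factors, had 5698 and 3588 CPM in the 24 h libraries, against 1647 and 2482 CPM in the 0 h libraries, and was not called (1.16 ± 0.77, adjusted p = 0.437). miR167, which targets other auxin response factors, had 11349.7 and 32493 CPM in the 24 h libraries, against 19933 and 15194 CPM in the 0 h libraries (log2 change 0.32 ± 0.62, adjusted p = 0.867), and its groups overlapped. Of the 23 auxin sequences tested, 3 (13.0%) were called higher and 1 (4.35%) lower, beside 2.61% higher and 6.97% lower among all 459. Their median log2 change was 1.09, beside 0.00 over all 459 sequences.

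Among the phase-transition families, miR172 rose and its usual counterpart miR156 did not pass. miR172 targets AP2-type factors and had 4313 and 5799 CPM in the 24 h libraries, against 1005 and 740.1 CPM in the 0 h libraries (log2 change 2.54 ± 0.81, adjusted p = 0.0414). The call was lost without 0 h replicate 1 (2.74), 0 h replicate 3 (2.44) or 24 h replicate 3 (2.32). Its main sequence, osa-miR172a, had 4212 and 5069 CPM in the 24 h libraries, against 730.2 and 621 CPM in the 0 h libraries (2.78 ± 0.76, adjusted p = 0.00755), with both 24 h values far above both 0 h values, and the call was lost without 0 h replicate 1 (2.90) or 0 h replicate 3 (2.60). miR156, which targets SPL transcription factors, had 94679.6 and 95495 CPM in the 24 h libraries, against 66609 and 74080.0 CPM in the 0 h libraries. Both 24 h libraries were above both 0 h libraries by a small margin (0.43 ± 0.38, adjusted p = 0.627). osa-MIR529a-p5 was called higher, although its groups overlapped: it had 10567 and 482 CPM in the 24 h libraries, against 522 and 516 CPM in the 0 h libraries (3.41 ± 0.79, adjusted p = 0.000783). The high value is that of 24 h replicate 1 alone, and the call was lost without 0 h replicate 1 (3.41), 0 h replicate 3 (3.33) or 24 h replicate 1 (−0.13). miR535 had 10249 and 11964 CPM in the 24 h libraries, against 8124 and 14145 CPM in the 0 h libraries (log2 change 0.00 ± 0.68). Of the 28 sequences of this list, 2 (7.14%, beside 2.61% of all tested sequences) were called higher and none lower, with a median of 0.27.

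In the other leaf development families the 4 called sequences all fell, and no family sum passed. For miR166, which targets the HD-ZIP III factors of leaf polarity, the family sum was 76758 and 70527 CPM in the 24 h libraries, against 34003 and 41265 CPM in the 0 h libraries, and was not called (0.97 ± 0.44, adjusted p = 0.211). Its main strand, osa-miR166a-3p, had 41571 and 31065 CPM in the 24 h libraries, against 16822 and 22377 CPM in the 0 h libraries (0.89 ± 0.74, adjusted p = 0.538). Of its 5p sequences, 2 were called lower. The 5p arm as a whole had a log2 change of −1.27, and 2 miR166 sequences with the seed TGTTGTC had positive changes (1.05 and 1.61). osa-miR166a-5p had 72.2 and 75.0 CPM in the 24 h libraries, against 339 and 1117 CPM in the 0 h libraries (−3.31 ± 0.82, adjusted p = 0.00283), and osa-miR166d-5p had 120.4 and 188 CPM in the 24 h libraries, against 678 and 1212 CPM in the 0 h libraries (−2.60 ± 0.78, adjusted p = 0.0163). So the guide strand lay higher and the 2 called 5p sequences lower in each 24 h library than in either 0 h library. The call of osa-miR166a-5p was lost without 0 h replicate 3 (−2.24), 24 h replicate 1 (−3.28) or 24 h replicate 3 (−3.15), while the call of osa-miR166d-5p was lost without each of the 4 libraries in turn (−2.95 to −2.17).

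miR164, which targets NAC factors, had 12088 and 11644 CPM in the 24 h libraries, against 3964 and 8149.9 CPM in the 0 h libraries, and was not called (0.97 ± 0.70, adjusted p = 0.500). miR171, which targets GRAS factors, had 18421 and 31538 CPM in the 24 h libraries, against 16778 and 15176 CPM in the 0 h libraries, and was not called either (0.65 ± 0.57, adjusted p = 0.627). Within it, osa-miR171h_L-1R+1 fell, with 120.4 and 182 CPM in the 24 h libraries, against 1174 and 1050.1 CPM in the 0 h libraries (−2.84 ± 0.78, adjusted p = 0.00755). That call was lost without each of the 4 libraries in turn (−3.04 to −2.63). miR159, which targets GAMYB-type factors, had 12246 and 12895 CPM in the 24 h libraries, against 34254 and 19738 CPM in the 0 h libraries (−1.10 ± 0.55, adjusted p = 0.247), and miR319, which targets TCP factors, had 545 and 491 CPM in the 24 h libraries, against 1452 and 1237 CPM in the 0 h libraries (−1.37 ± 0.67, adjusted p = 0.238). Both had lower values in each 24 h library than in either 0 h library, without passing the test. Of the 55 sequences of the leaf development list, 3 were called higher, all of miR396, and 4 (7.27%) lower, near the 6.97% lower among all tested sequences, with a median of 0.28.

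Copper-response families target copper proteins and are known to accumulate when copper is scarce, but copper supply was not tested here. Of their 10 sequences, 4 (40%) were called lower and none higher, with a median log2 change of −1.61. Among all tested sequences 6.97% were lower and 2.61% higher. miR528, a monocot family, had 5584 and 2622 CPM in the 24 h libraries, against 21524 and 21696 CPM in the 0 h libraries (log2 change −2.40 ± 0.72, adjusted p = 0.0315). The call was lost without 0 h replicate 1 (−2.45), 0 h replicate 3 (−2.29) or 24 h replicate 3 (−1.94). Both of its strands fell. osa-miR528-5p had 5813 and 2272 CPM in the 24 h libraries, against 16691 and 21289 CPM in the 0 h libraries (−2.23 ± 0.75, adjusted p = 0.0350), a call that was lost without each of the 4 libraries in turn (−3.09 to −1.55). Its partner osa-miR528-3p had 108 and 188 CPM in the 24 h libraries, against 3416 and 821 CPM in the 0 h libraries (−3.78 ± 0.78, adjusted p = 0.000115), a call that was lost without 0 h replicate 1 (−2.43).

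miR408, which targets plantacyanins and laccases, had 2588 and 6582 CPM in the 24 h libraries, against 11809 and 18473 CPM in the 0 h libraries, and was not called as a family (−1.72 ± 0.83, adjusted p = 0.238). A 3p variant under a soybean name, gma-miR408a-3p_L-1R+3, fell, with 120.4 and 161 CPM in the 24 h libraries, against 808 and 1652 CPM in the 0 h libraries (−3.11 ± 0.78, adjusted p = 0.00304). That call was lost without 0 h replicate 3 (−2.56), 24 h replicate 1 (−2.94) or 24 h replicate 3 (−3.17). The fourth copper call, osa-miR408-5p_L+1R-1, has fewer than 100 reads and was named after its values were seen. It had 96.3 and 80.4 CPM in the 24 h libraries, against 599.8 and 468 CPM in the 0 h libraries (−2.58 ± 0.82, adjusted p = 0.0263), and the call was lost without each of the 4 libraries in turn (−2.82 to −2.30). The main sequence osa-miR408-3p had 2383 and 5653 CPM in the 24 h libraries, against 9206 and 15847 CPM in the 0 h libraries (−1.64 ± 0.73, adjusted p = 0.141), lower in both 24 h libraries and not called. miR398, which targets copper/zinc superoxide dismutases, had 352 and 457 CPM in the 24 h libraries, against 530.4 and 693 CPM in the 0 h libraries (log2 change −0.60 ± 0.64, adjusted p = 0.707). miR397, which targets laccases, had 11769.7 and 6296 CPM in the 24 h libraries, against 10580.4 and 12122 CPM in the 0 h libraries (log2 change −0.33 ± 0.65, adjusted p = 0.867), and its groups overlapped. With 1 library left out in turn, 1 of the 10 copper sequences was called in each of the 4 fits, and the median stayed between −1.98 and −1.24.

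In the nutrient list 2 of 19 sequences (10.5%) were called higher, both of miR169, which targets NF-YA factors, and none lower (median 1.70). Among all tested sequences 2.61% were higher. osa-MIR169c-p3 had 3069 and 493 CPM in the 24 h libraries, against 417 and 391 CPM in the 0 h libraries (2.13 ± 0.73, adjusted p = 0.0419). The high value is that of 24 h replicate 1 alone, and the call was lost without 0 h replicate 1 (2.17), 0 h replicate 3 (2.02) or 24 h replicate 1 (0.26). The other call, osa-MIR169b-p3_1ss7TC, is of few reads and was named after its values were seen. It had 36 reads over the 24 h libraries and 1 over the 0 h libraries. After TMM scaling that is 19.1 times as many, with a counting interval of 3.22 to 775. The call was lost without 0 h replicate 1 (3.93), 0 h replicate 3 (6.94) or 24 h replicate 1 (3.24). The family sum of miR169 was 13336 and 9822 CPM in the 24 h libraries, against 8040.0 and 10745 CPM in the 0 h libraries (log2 change 0.30 ± 0.67, adjusted p = 0.869). The phosphate-linked miR827 had 624 and 10689.9 CPM in the 24 h libraries, against 1954 and 1405 CPM in the 0 h libraries (log2 change 1.76 ± 0.98, adjusted p = 0.310). Only 24 h replicate 3 was high, so the groups overlapped.

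miR444 is a monocot family that targets MADS-box genes. Of its 16 sequences, 15 had a positive log2 change (median 0.89), beside 231 of all 459 tested, and 1 was called. This was osa-miR444d.3, with 3057 and 5765 CPM in the 24 h libraries, against 1043 and 1021 CPM in the 0 h libraries (2.10 ± 0.74, adjusted p = 0.0490), and the call was lost without each of the 4 libraries in turn (1.72 to 2.45). Some miR444 sequences have the same values in all 6 libraries. With such rows counted once, 12 remained and none was called (median 0.92). The family had 48304 and 80160.3 CPM in the 24 h libraries, against 32886 and 34361 CPM in the 0 h libraries, and was not called (0.93 ± 0.47, adjusted p = 0.247). The families that target the small RNA machinery had log2 changes near 0. miR168, which targets AGO1, had 63422 and 33732 CPM in the 24 h libraries, against 56029 and 42951 CPM in the 0 h libraries (log2 change −0.03 ± 0.44, adjusted p = 0.994), and miR162, which targets DCL1, had 14698 and 32573 CPM in the 24 h libraries, against 30346 and 25339.7 CPM in the 0 h libraries (log2 change −0.24 ± 0.56, adjusted p = 0.883). None of their 7 sequences was called by edgeR, none by DESeq2 and none by limma, and 0 had an unadjusted p under 0.05 in edgeR, 1 in DESeq2 and 1 in limma. As a check of the tissue, triggers of the panicle's phased small RNAs were read. miR2275 was not among the tested sequences, and none of the 3 miR2118 sequences was called by edgeR, DESeq2 or limma (0 with an unadjusted p under 0.05 in edgeR). The miR2118 family had 1861 and 6491 CPM in the 24 h libraries, against 1647 and 4449.7 CPM in the 0 h libraries. No miRNA of this list marks leaf against other organs, so the leaf label itself was not checked.

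Among families restricted to rice or its relatives, miR1850 fell and the others did not pass. miR1850 had 386 and 377 CPM in the 24 h libraries, against 3462 and 1677 CPM in the 0 h libraries (log2 change −2.74 ± 0.75, adjusted p = 0.0195), and all 3 of its sequences, from both arms, were called lower. The family call was lost without 0 h replicate 1 (−2.16), 24 h replicate 1 (−2.62) or 24 h replicate 3 (−2.72). Its main sequence, osa-MIR1850-p5_1ss18CT, had 193 and 230.4 CPM in the 24 h libraries, against 1852 and 888 CPM in the 0 h libraries (−2.67 ± 0.77, adjusted p = 0.0117), a call that was lost without 0 h replicate 1 (−2.06), 24 h replicate 1 (−2.61) or 24 h replicate 3 (−2.69). osa-miR1850.1 had 181 and 53.6 CPM in the 24 h libraries, against 652 and 563 CPM in the 0 h libraries (−2.44 ± 0.81, adjusted p = 0.0318), and this call was lost without 0 h replicate 1 (−2.33), 0 h replicate 3 (−2.60) or 24 h replicate 3 (−1.59). miR1425, which targets PPR proteins, had 22926 and 32653 CPM in the 24 h libraries, against 8543 and 13593 CPM in the 0 h libraries, and was not called (1.33 ± 0.61, adjusted p = 0.211). Of the 21 sequences of the list, 3 (14.3%, beside 6.97% of all tested sequences) were called lower, those of miR1850, and none higher (median 0.38).

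The other rice-named families that passed rest on 1 tested sequence each and on few reads. miR5073 had 34.0 and 40.0 CPM in the 24 h libraries, against 893 and 1480.1 CPM in the 0 h libraries (log2 change −4.95 ± 0.83, adjusted p = 0.000375). Its only tested sequence is the 24 nt osa-miR5073_R+1_1ss20AT, with 3 and 7 reads in the 24 h libraries, against 32 and 158 in the 0 h libraries. The family log2 change was −5.06 to −4.73 in the fits that tested it. It was not tested without 0 h replicate 1 or 0 h replicate 3, as it met the read filter only through the 0 h libraries. Its dependence on either of these is therefore not known, and a rise could not have been called. miR3979 had 22.7 and 114 CPM in the 24 h libraries, against 475 and 581 CPM in the 0 h libraries (−2.83 ± 0.80, adjusted p = 0.0253), and the call was lost without 0 h replicate 1 (−2.98), 0 h replicate 3 (−2.55) or 24 h replicate 1 (−2.08). miR2106 had 56.7 and 206 CPM in the 24 h libraries, against 670.0 and 787 CPM in the 0 h libraries (−2.41 ± 0.76, adjusted p = 0.0414), and the call was lost without 0 h replicate 1 (−2.54), 0 h replicate 3 (−2.16) or 24 h replicate 1 (−1.69). The one rise, of miR3982, was to 443 and 366 CPM in the 24 h libraries, against 55.8 and 103 CPM in the 0 h libraries (2.22 ± 0.73, adjusted p = 0.0465), and it was lost without 0 h replicate 1 (1.92), 0 h replicate 3 (2.93) or 24 h replicate 1 (2.20). Among single sequences of families that did not pass, osa-miR1320-3p had 301 and 32.1 CPM in the 24 h libraries, against 365 and 1260.2 CPM in the 0 h libraries (−2.40 ± 0.78, adjusted p = 0.0283), and the call was lost without 0 h replicate 1 (−2.99), 0 h replicate 3 (−1.27) or 24 h replicate 3 (−1.26).

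Families whose tested sequences carry only other plants' names gave 7 of the 13 falls and none of the rises. There were 21 such families, and 16 of them had a negative log2 change, with a median of −1.03 beside 0.05 over all 124. The 87 families with rice names only had 2 called higher and 6 lower (median 0.18). The 16 families with names of both kinds had 3 higher and none lower (median 0.54). miR894, named from the moss Physcomitrella, held most reads. It had 12122 and 42994 CPM in the 24 h libraries, against 159042 and 122446 CPM in the 0 h libraries (log2 change −2.35 ± 0.50, adjusted p = 0.00450), and the call was lost without 24 h replicate 1 (−1.58). ppt-miR894_R+1 alone was the most abundant listed sequence at 0 h, with 14.5 and 10.4% of the listed reads. It had 7282 and 22573 CPM in the 24 h libraries, against 127139 and 102006 CPM in the 0 h libraries (−2.94 ± 0.82, adjusted p = 0.00902), and the call was lost without 0 h replicate 1 (−2.77), 0 h replicate 3 (−3.15) or 24 h replicate 1 (−2.39). osa-miR5077_1ss5GA, which carries a rice name and ends in the same 18 bases, was its family's only tested sequence, and miR5077 had 68.1 and 51.4 CPM in the 24 h libraries, against 530.4 and 309 CPM in the 0 h libraries (−2.78 ± 0.83, adjusted p = 0.0305). This call was lost without 0 h replicate 1 (−2.40), 0 h replicate 3 (−3.03) or 24 h replicate 3 (−2.55).

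miR8155 and miR5139 share letters as printed above and fell together. miR8155, by cpa-miR8155_L-1, had 125 and 377 CPM in the 24 h libraries, against 4132 and 2848 CPM in the 0 h libraries (log2 change −3.76 ± 0.90, adjusted p = 0.00836), and the call was lost without 0 h replicate 1 (−3.49) or 24 h replicate 1 (−3.07). miR5139 had 34.0 and 80.0 CPM in the 24 h libraries, against 1479.6 and 768 CPM in the 0 h libraries (−4.18 ± 0.97, adjusted p = 0.00836), and the call was kept without each of the 4 libraries in turn (−4.96 to −3.64). Its longer sequence, rgl-miR5139_L+3, had 24.1 and 48.2 CPM in the 24 h libraries, against 1095 and 668 CPM in the 0 h libraries (−4.46 ± 0.88, adjusted p = 7.43e-05), below the floor of 24 h replicate 1 in that library. Since the shorter sequence lies within the longer ones, these names cover 1 stretch of letters, and their falls are not independent of each other.

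miR8175, an Arabidopsis name, had 1861 and 4571 CPM in the 24 h libraries, against 19988 and 21602 CPM in the 0 h libraries (log2 change −2.69 ± 0.77, adjusted p = 0.0254), and all 5 of its sequences end in CCA and had negative log2 changes. The family call was lost without 0 h replicate 1 (−2.77), 0 h replicate 3 (−2.51) or 24 h replicate 1 (−2.05). Its 23 nt sequence ath-miR8175_L+3_1ss5AT had 433 and 1297 CPM in the 24 h libraries, against 13535 and 14138 CPM in the 0 h libraries (−3.99 ± 0.80, adjusted p = 7.43e-05), and that call was kept without each of the 4 libraries in turn (−4.84 to −3.45). The 21 nt ath-miR8175_L+1 had 457 and 718 CPM in the 24 h libraries, against 2295 and 2816 CPM in the 0 h libraries (−2.11 ± 0.74, adjusted p = 0.0467), a call that was lost without each of the 4 libraries in turn (−2.32 to −1.86). The 18 nt mtr-MIR2606c-p3_2ss8TG18GA, the only sequence of miR2606, had 24.1 and 96.4 CPM in the 24 h libraries, against 261 and 1928 CPM in the 0 h libraries (−4.07 ± 0.84, adjusted p = 0.000115). Its call was lost without 0 h replicate 3 (−2.02), and the 0 h libraries themselves differ several-fold.

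miR6300, a soybean name, had 29861 and 25071 CPM in the 24 h libraries, against 91734 and 132966 CPM in the 0 h libraries (log2 change −2.03 ± 0.51, adjusted p = 0.0109), and the call was lost without 0 h replicate 3 (−1.63). All 17 of its sequences, of 18 to 25 nt, had negative log2 changes and 5 were called lower. They are not 17 measurements: the 18 nt gma-miR6300 is the 5′ part of longer forms, some forms have the same values in all 6 libraries, and only 11 rows of values are distinct. The shortest and the longest called forms are given here, as they bracket the set.
gma-miR6300: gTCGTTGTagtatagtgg
gma-miR6300_R+7: gTCGTTGTagtatagtggtgagtat

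The 25 nt gma-miR6300_R+7 had 4369 and 4189.9 CPM in the 24 h libraries, against 16169.5 and 26616 CPM in the 0 h libraries (−2.32 ± 0.75, adjusted p = 0.0283), and its call was lost without each of the 4 libraries in turn (−2.64 to −1.98). The 22 nt gma-miR6300_R+4 had 3129 and 3563 CPM in the 24 h libraries, against 16899.7 and 21804 CPM in the 0 h libraries (−2.53 ± 0.75, adjusted p = 0.0157), and its call was lost without each of the 4 libraries in turn (−2.70 to −2.40). The 18 nt gma-miR6300 had 1396 and 2165 CPM in the 24 h libraries, against 3129.6 and 14244 CPM in the 0 h libraries (−2.29 ± 0.74, adjusted p = 0.0283), with a wide gap between the 0 h libraries, and its call was lost without each of the 4 libraries in turn (−3.00 to −0.87). The 21 nt forms gma-miR6300_R+3_1 and gma-miR6300_R+3_2 have the same reads in every library, 156 and 188 CPM in the 24 h libraries, against 1017 and 764 CPM in the 0 h libraries (−2.35 ± 0.77, adjusted p = 0.0318), and each call was lost without each of the 4 libraries in turn (−2.61 to −2.13). In every called form both 24 h libraries lay below both 0 h libraries, as they did in 127 of all 459 tested sequences (27.7%). The called forms were selected by a test on these same libraries, so this adds no evidence. With 1 library left out, none of the 17 was called in any of the 4 fits, while 4 to 14 had an unadjusted p under 0.05 and the median log2 change lay between −2.27 and −1.57.

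miR9774, a wheat name, had 5379.8 and 14798 CPM in the 24 h libraries, against 33723 and 39251 CPM in the 0 h libraries (log2 change −1.85 ± 0.62, adjusted p = 0.0483), with 9 of 10 sequences negative, and the call was lost without 0 h replicate 1 (−1.98), 0 h replicate 3 (−1.62) or 24 h replicate 1 (−1.17). Its 23 nt tae-miR9774_L+2R-1_1ss22GT had 2624 and 5036 CPM in the 24 h libraries, against 17213 and 19322 CPM in the 0 h libraries (−2.25 ± 0.74, adjusted p = 0.0318), and that call was lost without each of the 4 libraries in turn (−2.65 to −1.89). miR6478, a poplar name, had 16276 and 16815 CPM in the 24 h libraries, against 42210.1 and 25386 CPM in the 0 h libraries, and was not called as a family (−1.03 ± 0.57, adjusted p = 0.310). Of its sequences, ptc-miR6478_R+2_1ss21GA fell, with 1986 and 1982 CPM in the 24 h libraries, against 10406 and 6683 CPM in the 0 h libraries (−2.10 ± 0.73, adjusted p = 0.0460), a call that was lost without each of the 4 libraries in turn (−2.45 to −1.75).

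Sorted by name, the 276 rice sequences included 10 called higher and 16 lower, with a median log2 change of 0.27. The 118 sequences under another plant's name included 2 higher and 16 lower, with a median of −0.77. Most of these falls were of names whose family has no rice name in the list. These 73 sequences had 1 higher and 15 lower and a median of −1.18. The 45 whose family also has rice names had 1 higher and 1 lower and a median of 0.00. The 2 called higher were ghr-miR393_L+3R-1 and stu-MIR8005a-p3_1ss6GA, both of 24 nt and named after their values were seen. The call of ghr-miR393_L+3R-1 was lost without 0 h replicate 1 (6.78), 0 h replicate 3 (6.59) or 24 h replicate 1 (5.45). The reads of stu-MIR8005a-p3_1ss6GA were 30 over the 24 h libraries and 1 over the 0 h libraries. After TMM scaling that is 15.9 times as many, with a counting interval of 2.65 to 649. Its call was lost without 0 h replicate 1 (3.35), 0 h replicate 3 (6.37) or 24 h replicate 1 (3.89). The sequence was not tested without 24 h replicate 3. With 1 library left out, the median of the 118 lay between −0.94 and −0.54 and that of the rice names between 0.11 and 0.46. The 65 new candidates, which the authors predicted and which have no database name, had a median of −0.05. None of them was called by edgeR, DESeq2 or limma, and 3 had an unadjusted p under 0.05 in edgeR.

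Shares of the listed reads showed the same split in every library. Rice names took 91.6 and 87.1% in the 24 h libraries, against 55.8 and 56.1% in the 0 h libraries. Other plants' names took 7.51 and 11.8% in the 24 h libraries, against 42.8 and 42.6% in the 0 h libraries. Since 1 sequence can set such shares, they were also taken without osa-miR396e-5p, an alternative chosen after seeing the data. Other plants' names then took 14.1 and 18.1% in the 24 h libraries, against 44.7 and 45.3% in the 0 h libraries, so the gap remained without it. Without ppt-miR894_R+1 as well, other plants' names took 13.2 and 15.7% in the 24 h libraries, against 34.8 and 38.5% in the 0 h libraries. Groups of 2 libraries allow no exact permutation p under 0.333, so the shares were not tested. Their counting error is small beside these gaps: the share of other plants' names in the shallowest library, 0 h replicate 1, had an exact 95% interval of 42.2 to 43.3%.

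**Figure D2:**
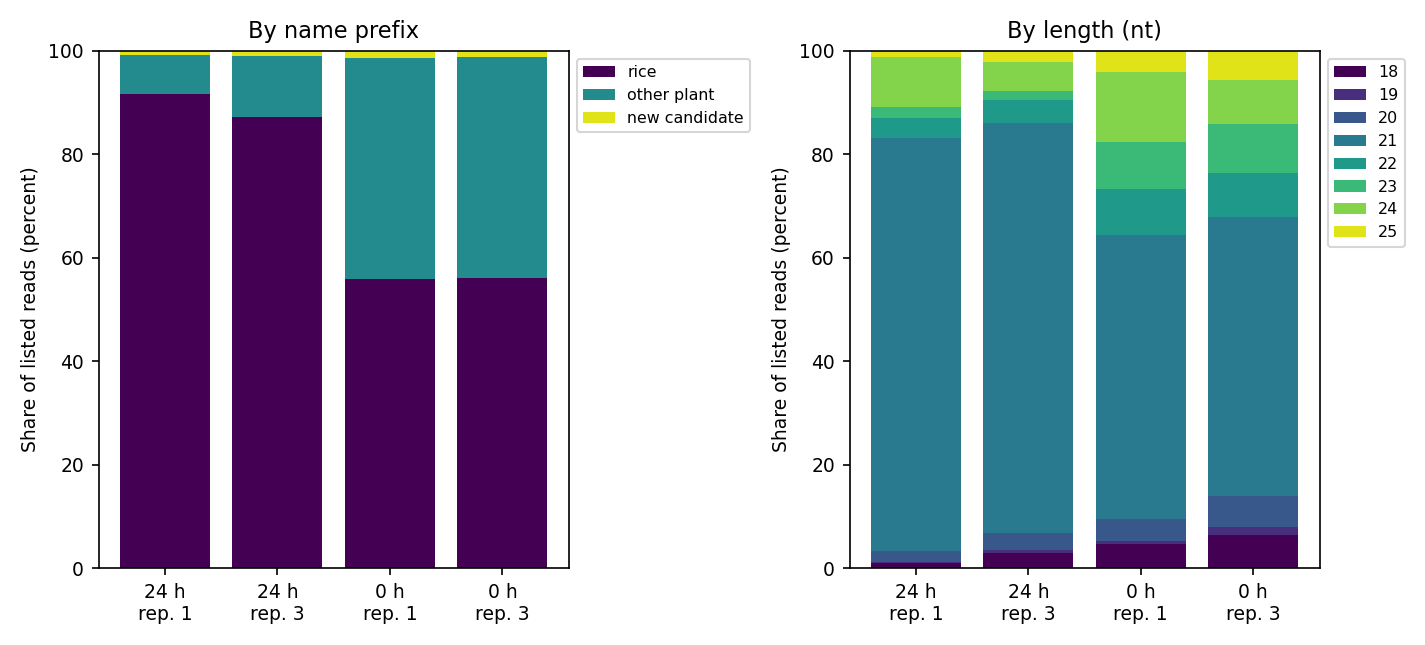
Percent of the listed reads in each library by name prefix (left panel) and by length in nt (right panel), as stacked bars with the 2 libraries of 24 h left of the 2 of 0 h. Other plants' names take 7.51 and 11.8% at 24 h and 42.8 and 42.6% at 0 h.

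Sequences ending in CCA took 3.83 and 6.06% of the listed reads in the 24 h libraries, against 21.4 and 17.9% in the 0 h libraries. Much of this was 1 sequence, ppt-miR894_R+1. Without it, an alternative chosen after seeing the data, the CCA share was 3.34 and 4.29% in the 24 h libraries, against 8.04 and 8.33% in the 0 h libraries. Without osa-miR396e-5p as well it was 6.28 and 6.64% in the 24 h libraries, against 8.48 and 8.92% in the 0 h libraries. There were 30 of them among those tested, with 1 higher, 8 lower and a median log2 change of −0.87. Among other plants' names, the 20 with a CCA end had none higher and 7 lower (median −1.15), and the 98 without it had 2 higher and 9 lower (median −0.65). Of the 16 falls among other plants' names, 9 were thus among the 98 sequences without a CCA end. The ending does not sort tRNA fragments from other sequences, as a fragment from elsewhere in a tRNA lacks it. Which sequences derive from tRNA was not tested. The tRNA class of the authors' deposited table, 0.984% of reads at 24 h and 1.46% at 0 h, is given beside this, and its part in the result was not tested.

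By length, the 179 sequences of 21 nt had 10 of the 12 rises and 17 of the 32 falls, with a median log2 change of 0.31. They took 79.7 and 79.2% of the listed reads in the 24 h libraries, against 55.0 and 53.8% in the 0 h libraries. Without osa-miR396e-5p the shares of 21 nt were 62.0 and 68.2% in the 24 h libraries, against 52.9 and 50.8% in the 0 h libraries. At 21 nt the rice names had a median of 0.61 over 131 sequences and other plants' names one of −0.19 over 32, so the length class is not of one kind. The 26 sequences of 23 nt had no rise and 5 falls (median −1.18) and took 2.08 and 1.63% in the 24 h libraries, against 9.16 and 9.46% in the 0 h libraries. Of these 26, 17 carry another plant's name, and their median was −1.77, while the 8 rice names had one of 0.50. In 13 of the 17, both 24 h libraries lay below both 0 h libraries, beside 127 of all 459 tested sequences (27.7%).

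Sequences of 24 nt, the usual length of siRNAs that direct DNA methylation, had a median change near 0. The 131 tested had 2 higher and 1 lower and a median of 0.14. They took 9.63 and 5.70% in the 24 h libraries, against 13.4 and 8.51% in the 0 h libraries, so the shares overlapped. The 51 of 22 nt had none higher and 3 lower (median −0.10). Of the 23 of 18 nt, 3 were called lower (median −0.92), and of the 26 of 20 nt none was called by edgeR, with 6 at an unadjusted p under 0.05, while DESeq2 called 2 and limma 3 lower. In the range of 18 to 20 nt, rice names had a median of 0.28 over 24 sequences and other plants' names one of −1.12 over 33.

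Shares by first base rest in good part on the most abundant sequence of each time point, osa-miR396e-5p (first base T) and ppt-miR894_R+1 (first base C). Sequences that begin with T (U in the RNA) took 81.0 and 83.3% of the listed reads in the 24 h libraries, against 47.1 and 52.1% in the 0 h libraries. Those that begin with C took 2.71 and 4.55% in the 24 h libraries, against 22.5 and 16.7% in the 0 h libraries. Without both sequences, T took 65.1 and 76.6% in the 24 h libraries, against 52.6 and 55.2% in the 0 h libraries, and C took 4.16 and 4.26% in the 24 h libraries, against 9.87 and 7.50% in the 0 h libraries. Of 39 sequences with a first C, 6 were called lower and none higher (median −0.49). The 192 with a first T had 6 higher and 10 lower (median 0.11). Among rice names alone the 18 with a first C had a median of 0.24, above 0, and the 125 with a first T one of 0.38.

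**Figure D3:**
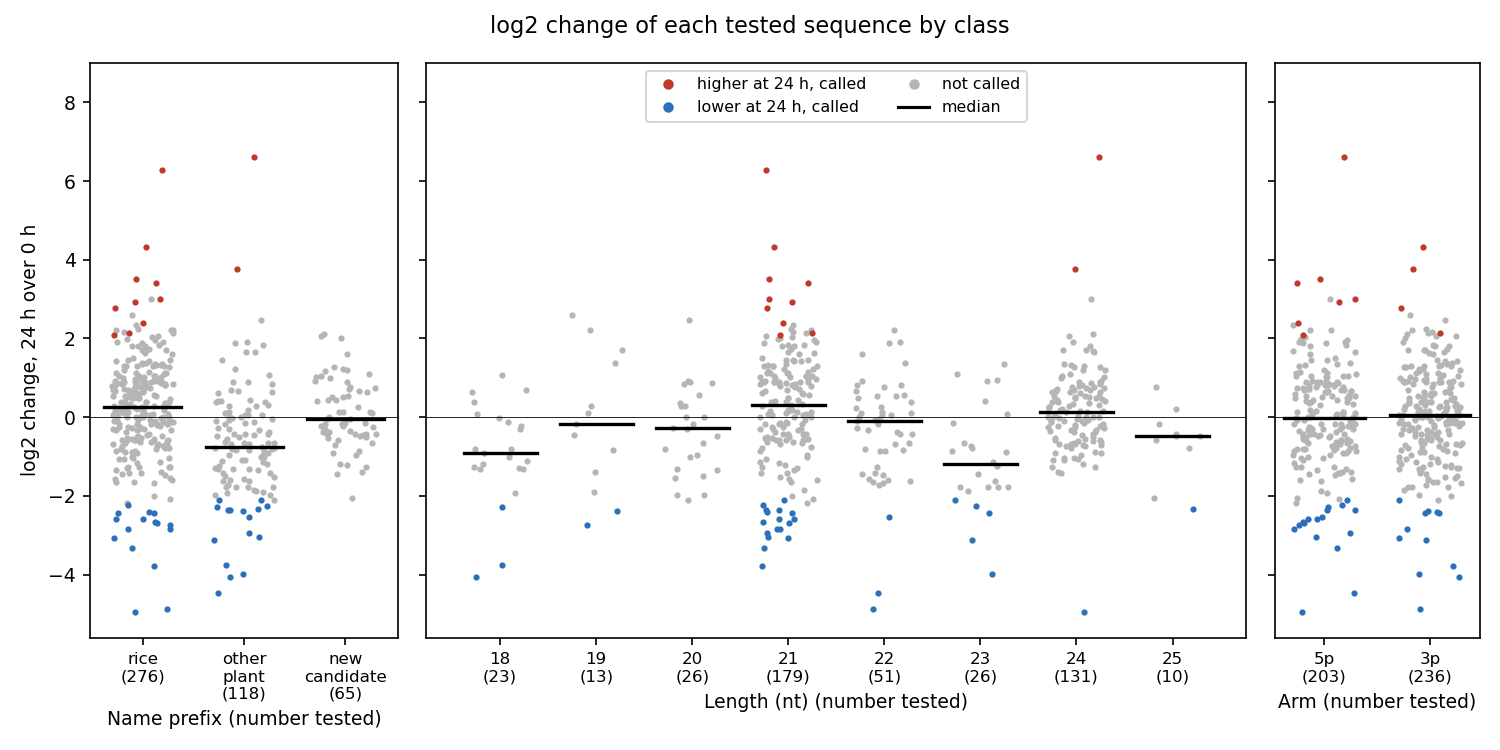
log2 change at 24 h over 0 h (y axis) of each tested sequence, by name prefix, by length in nt and by arm, with 1 point per sequence, called ones coloured and a line at each median. The medians are 0.27 for rice names and −0.77 for other plants' names, 0.31 at 21 nt and −1.18 at 23 nt, and −0.01 and 0.04 for the 5p and 3p arms.

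By arm, the medians were close. The 203 sequences of the 5p arm had 7 higher and 17 lower (median −0.01), and the 236 of the 3p arm had 4 higher and 12 lower (median 0.04). The 17 sequences listed on both arms had 1 higher and 3 lower (median −1.08). Within rice names the 5p median was 0.35 over 127 sequences and the 3p median 0.26 over 141. The share of 5p reads was 73.1 and 69.1% in the 24 h libraries, against 52.3 and 54.0% in the 0 h libraries. Without osa-miR396e-5p it was 49.8 and 52.6% in the 24 h libraries, against 50.2 and 51.1% in the 0 h libraries. ppt-miR894_R+1, also of the 5p arm, held 14.5 and 10.4% of the listed reads in the 0 h libraries. The arm shares were not taken without it, so they depend on which abundant 5p sequence is left out.

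Whether the arms of a family changed by unequal amounts was tested in 62 families with both arms. None passed (0% called; edgeR's diffSpliceDGE, 7 with an unadjusted p under 0.05). In miR396 the 5p arm took 99.5 and 99.3% in the 24 h libraries, against 95.5 and 97.7% in the 0 h libraries (log2 5p over 3p change 2.50, adjusted p = 0.0763). In miR166 the 5p arm took 1.57 and 2.16% in the 24 h libraries, against 7.55 and 8.56% in the 0 h libraries (−2.21, adjusted p = 0.101). In miR528 the 5p arm took 98.2 and 92.4% in the 24 h libraries, against 83.0 and 96.3% in the 0 h libraries (1.49, adjusted p = 0.393), and the 24 h and 0 h libraries overlapped. This test gives no standard error. In miR172 the log2 5p over 3p change was −0.62, adjusted p = 0.971. Pairs that missed the threshold at this depth are not shown to have kept their arm use.

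Sequences were also tested against the other sequences of their own family, in a test added after the data were seen. Of 348 sequences in families with more than 1 tested sequence, 7 (2.01%) departed from their family, 1 upward and 6 downward, and 32 had an unadjusted p under 0.05. The largest group was the miR166 5p pair. Of the family's reads, osa-miR166a-5p took 0.0888 and 0.113% in the 24 h libraries, against 1.07 and 2.66% in the 0 h libraries (log2 sequence minus family −4.32, adjusted p = 6.68e-05). For osa-miR166d-5p the share was 0.148 and 0.284% in the 24 h libraries, against 2.13 and 2.88% in the 0 h libraries (−3.60, adjusted p = 0.000579). The counting interval of the osa-miR166a-5p share ended at 0.193 and 0.190% in the 24 h libraries and began at 0.569 and 2.20% in the 0 h libraries. Both shares were lower in each 24 h library than in either 0 h library. The departure of osa-miR166a-5p was kept without each of the 4 libraries in turn (−4.72 to −3.41), while the departure of osa-miR166d-5p was lost without 24 h replicate 1 (−3.18).

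The other downward departures were of minor strands or minor members. osa-miR396c-3p_L-1R+1 took 0.104 and 0.133% in the 24 h libraries, against 1.90 and 0.787% in the 0 h libraries of miR396 reads (−3.44, adjusted p = 0.00289). Its own level was not called (log2 change −0.18), while the family rose, and the departure was lost without 0 h replicate 1 (−2.77), 24 h replicate 1 (−3.27) or 24 h replicate 3 (−3.63). osa-miR171h_L-1R+1 took 0.616 and 0.616% in the 24 h libraries, against 7.49 and 6.79% in the 0 h libraries of miR171 reads (−3.50, adjusted p = 0.00367), and this was lost without 0 h replicate 1 (−3.43), 24 h replicate 1 (−3.53) or 24 h replicate 3 (−3.54). osa-miR164e, which differs from osa-miR164a at 2 bases (A20C and G21A, the base of osa-miR164e first), took 0.376 and 0.589% in the 24 h libraries, against 3.50 and 7.0% in the 0 h libraries of miR164 reads (−3.64, adjusted p = 0.0136), and this was lost without 0 h replicate 3 (−2.83), 24 h replicate 1 (−3.32) or 24 h replicate 3 (−3.98). osa-MIR167b-p3 had 3 reads over the 24 h libraries and 50 over the 0 h libraries (−5.19, adjusted p = 0.000579), and this was lost without 24 h replicate 3 (−3.42). The one upward departure, of osa-MIR5788-p5_1ss7GA, was to 6.77 and 4.52% in the 24 h libraries, against 0 and 0.778% in the 0 h libraries of miR5788 reads (3.52, adjusted p = 0.0348), and it was lost without each of the 4 libraries in turn (2.77 to 7.31).

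**Figure D4:**
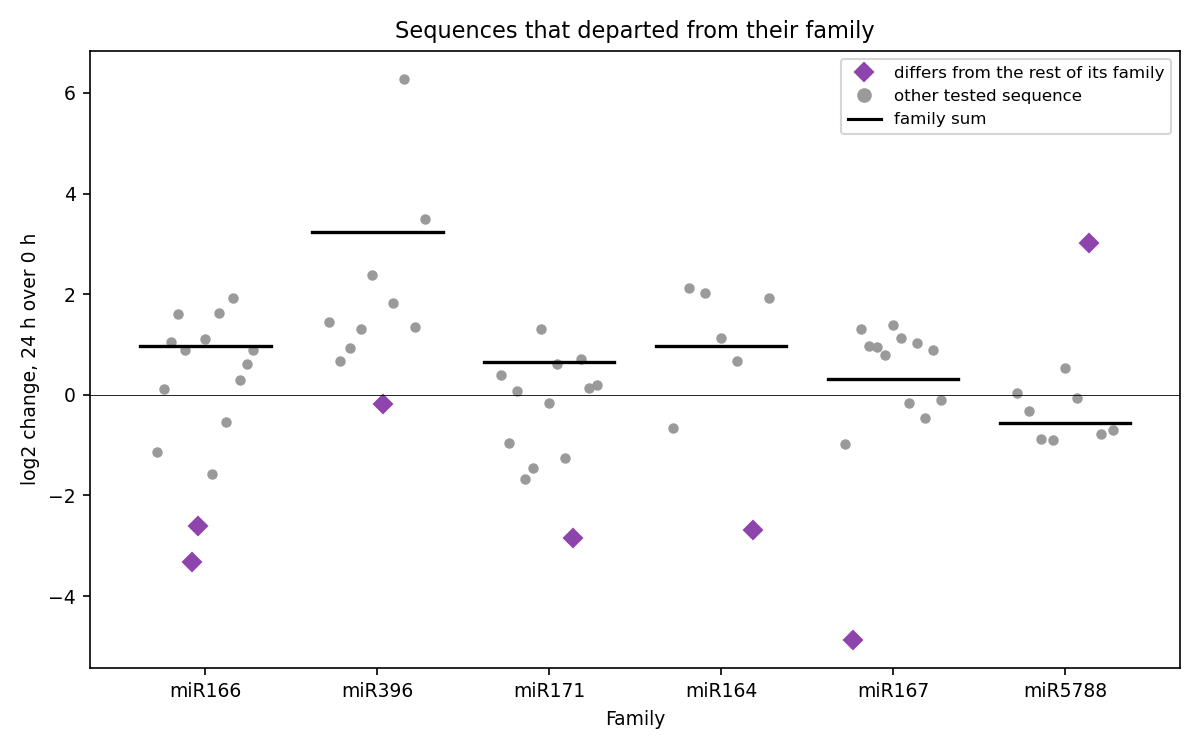
log2 change at 24 h over 0 h (y axis) of each tested sequence in the 6 families that hold the 7 departing sequences, with 1 point per sequence, diamonds for those that departed and a line at the change of the family sum. In miR166 the diamonds of the departing 5p sequences lie at −3.31 and −2.60 and the family sum at 0.97.

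Predicted cleavage sites of the called families were read in the degradome, a library of the 5′ ends of cleaved mRNA, with 1 library per time point (12960708 raw reads at 24 h and 12554074 at 0 h) and no test. Ratios are scaled by these totals, and their intervals cover counting error only. Only predicted sites with reads at 24 h or 0 h are counted. At the 14 sites of miR396 there were 12 reads at 24 h and 61 at 0 h (ratio 0.191, 0.0934 to 0.357), although the miRNA rose. Cleavage reads were fewer at 24 h at 12 of these sites, several of which had only 1 read at 0 h and 0 at 24 h. By scaled reads the same held at 8 of 10 sites of miR528 and 7 of 8 of miR160. It held at 4 of 7 sites of miR172 and 1 of 4 of miR393. The site in the growth-regulating factor gene LOC_Os02g53690 had 1 read at 24 h and 18 at 0 h, and the one in LOC_Os06g02560 had 1 at 24 h and 11 at 0 h. At the 10 sites of miR528, which fell, there were 25 reads at 24 h and 547 at 0 h (ratio 0.0443, 0.0284 to 0.0661). Nearly all were at the cupredoxin gene LOC_Os07g38290, with 15 reads at 24 h and 505 at 0 h. The ascorbate oxidase LOC_Os06g37150 had 1 read at 24 h and 7 at 0 h.

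At the 8 sites of miR160 there were 1082 reads at 24 h and 1641 at 0 h (ratio 0.639, 0.591 to 0.690). Reads were fewer at 24 h except at minor sites in LOC_Os06g47150 (12 at 24 h and 8 at 0 h) and LOC_Os10g33940 (3 at each time point). The site with most reads, in the auxin response factor gene LOC_Os06g47150, had 759 at 24 h and 892 at 0 h, and the one in LOC_Os10g33940 had 139 at 24 h and 376 at 0 h. At the 7 sites of miR172 there were 113 reads at 24 h and 81 at 0 h (ratio 1.35, 1.01 to 1.82). The gene related to AP2.7, LOC_Os05g03040, had 76 at 24 h and 35 at 0 h, while LOC_Os02g13100 had 10 at 24 h and 30 at 0 h. At the 4 sites of miR393 there were 38 reads at 24 h and 24 at 0 h (ratio 1.53, 0.896 to 2.67), and that interval includes no difference. Of the other 13 called families, 4 had no predicted site with reads at 24 h or 0 h. The other 9 had few reads, between 2 and 12 at 24 h and between 0 and 17 at 0 h. The counting interval of the ratio included 1 in all 9. Among them the falling families miR8155 and miR1850 each had 3 reads at 24 h and 1 at 0 h (ratio 2.91, 0.233 to 153), and miR8175 had 12 at 24 h and 17 at 0 h (ratio 0.684, 0.298 to 1.52). The level of each target mRNA is not among these values, so cleavage per transcript cannot be told apart from the amount of transcript.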

How the data were processed

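Small RNA of 15 to 30 nt was sequenced from leaf, and the authors deposited, for each library and mature sequence, a raw read value that is an estimated count, since reads matching several entries were divided by a rule that no source used here states. A normalized signal was deposited too by the authors, the raw value times 1 constant per library, used here only as an alternative scaling. The read classes are the authors' percent of reads per time point. Degradome values deposited by the authors are a read count for every predicted site, and the other values of that table, such as positions, were used only as labels. No source used here names the read mapper, the target finder or the genome build.

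Of 588 entries, 483 distinct sequences were kept once each. Their raw values were rounded to whole numbers, and they were also summed by family number. Features with at least 10 reads in at least 2 of 6 libraries were tested with edgeR 4.0.16 in R 4.3.3 (TMM scaling, quasi-likelihood test, 2-sided, Benjamini-Hochberg adjustment, threshold 0.05). All 6 libraries entered 1 fit with time point as the only factor. The fit had been planned for whole-number counts. SE was computed as log2 change over √F. The common dispersion was 0.219 for sequences (biological coefficient of variation 0.468) and 0.230 for families. The prior degrees of freedom were infinite for sequences and 18.0 for families, so that SE and p rest wholly or in part on a spread shared over features. Arm use and departures within a family were tested with edgeR's diffSpliceDGE. Intervals of ratios and shares are exact at 95% and cover counting error only. DESeq2 1.42.0, limma 3.58.1 (voom), other scalings, no filter, a replicate block and left-out libraries were alternatives. The scripts were tested on simulated counts.

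Named were all called families, all called sequences with at least 100 reads in the 4 libraries, the most abundant sequence of listed families where it adds to the family, and the sequences that departed from their family. The families, lists and rules were chosen with earlier results of these data known, and list counts are descriptions.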

Additional observations from a re-analysis of the deposited data

How the results depend on the processing

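The main test called 44 sequences, 18 families, 0 arm pairs and 7 departures within families. With 1 of the 4 libraries left out, between 8 and 24 sequences, between 5 and 15 families, 0 arm pairs and between 2 and 5 departures were called. Of the 44 sequences, 3 were kept in all 4 of these fits (ath-miR8175_L+3_1ss5AT, osa-miR396d and rgl-miR5139_L+3) and 19 in none, and of the 18 families miR396 and miR5139 were kept in all 4. With the authors' scaling constants 28 sequences and 11 families were called, and the median log2 change over all families moved to 0.15 (0.05 in the main test). With library totals taken without the top 3 sequences, 2 arm pairs were called, and with the 0 h and 24 h libraries alone, 3. Without 24 h replicate 1 the log2 change turned to −0.13 for osa-MIR529a-p5, to −3.55 for osa-miR1432-5p_R+1 (0.54 in the main test) and to −3.34 for the miR1432 family (0.45 in the main test), so that library decides these values. Their highest values, 4.50, 1.69 and 1.42 in the same order, were those without 24 h replicate 3.

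A fit with the replicate number as a block called 29 sequences, 14 families, 0 arm pairs and 7 departures. The labels share only these numbers, and samples of the same number did not deviate together in all pairs of time points (r = 0.153, −0.124 and −0.222), so the block is not read as a pairing. DESeq2 called 39 sequences (33 of them among the 44) and limma 41 (37 of them among the 44). Counting rows with identical values once, an alternative chosen after seeing the data, left 42 sequences and 18 families. The alternatives, without those added after seeing the data, were also set against the main test item by item. The items were the named or called sequences, the called or listed families and the 3 arm pairs of lowest p. The status, called or not called, was the same for 1191 values, while 255 lost the call and 11 gained one. The direction turned for 3 values called in either fit. A turn of sign in a value called in neither fit counted as the same.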
